A study of Mus musculus with 59 samples.

Results

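The VH gene repertoire of wild-type (Igh+/+) pro-B cells was described across 18 VDJ-seq libraries, out of 48 VDJ-seq libraries and 59 samples in the whole series. The members were chosen by listing the experiment numbers of libraries with an Igh+/+ label, in 5 groups here called sets. Set A holds the experiments 70495 to 70497, set B the experiments 72355 to 72357, set C the experiments 75644 to 75646, set D the experiments 126443, 126444, 126448, 126449, 126453 and 126454, and set E the experiments 129715, 129705 and 129706. The libraries are named by set and order within it, so that D3 is experiment 126448 and E1 is experiment 129715. No label names a sequencing run, a sort or a date. A set is therefore a group of near experiment numbers that share a list of VH gene names. E1 was placed in set E by its number and its list, whereas the listing it was chosen by, like the study, puts it with the libraries of set C. All libraries were from pro-B cells sorted directly from the bone marrow of mice on a C57BL/6 background without any change at the Igh locus, with 1 mouse per library. Nothing in the labels says which mice were litter mates or were sorted together, so that the p-values measure the spread between these libraries. The ages of these mice were not given in the sources used here.

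VH gene segments are joined to a rearranged DJH segment by the RAG recombinase at the pro-B cell stage, after DH to JH joining. Each VH segment carries downstream of its coding part a recombination signal sequence, made of a heptamer, a spacer and a nonamer, at which RAG cuts. In the mouse, the VH5 and VH2 families lie at the end of the VH cluster next to the DH segments (proximal), the VH1 and VH8 families fill the far (distal) end, and small families lie between them. VDJ-seq counts the joints in genomic DNA by extension from JH primers, so that both VDJH joints and DJH joints are seen. The deposited value of a VH gene is a percentage of all unique VDJH and DJH joints of a library. The sum over the VH genes is the percentage of VDJH joints, and the share used below is the value of a gene or family divided by this sum, as a percentage of VDJH joints. The deposited values are given without numbers of joints. Shares of little used genes rise in steps that depend on this number, such as 0.00237% in D3 and 0.00975% in C1. The depth thus differed between libraries, but it was not estimated. The SDs are spreads between libraries of 1 mouse each, which mix differences between mice, between sets and from counting. The SEs of log2 differences come from the limma fit. VDJH and DJH joints were both present in each library, as is known for pro-B cells, and this is the only check of the cell label that these data allow.

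Library D3 stood apart from the other 17 libraries in most values, and results are given with and without it. The values of E1 were deposited a second time, under a label of another genotype (P4ΔCtcfGV, a changed PAIR4 construct inserted where 890 kb of the distal VH cluster were deleted). In E1, 20.9% of VDJH joints used VH genes of the 890-kb region, the lowest share of the 18 libraries, next to 21.02% to 29.4% in the other 17. A further 2 libraries labelled Igh+/+ have numbers within the span of set E (129710 and 129711) but are not among the listed experiments. They held 0.786% and 0.761% of VDJH joints from this region and were not used. The values of 129711 were likewise deposited a second time under the P4ΔCtcfGV label.

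The 8 sequences that follow are the recombination signals of genes at the top of the ranking and of little used genes that carry the same letters, and they are shown because in these groups usage differed widely between genes with 1 signal. They were read from the mm9 genome as the 39 bases after the annotated end of the gene, 5′ to 3′ on the coding strand, with the heptamer and the nonamer in capitals and the spacer in lower case.
VH5-2: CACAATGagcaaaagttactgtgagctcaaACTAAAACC
VH5-4: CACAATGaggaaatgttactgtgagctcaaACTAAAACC
VH5-9-1: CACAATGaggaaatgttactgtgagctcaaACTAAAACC
VH2-2: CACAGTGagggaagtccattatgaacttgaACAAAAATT
VH2-4: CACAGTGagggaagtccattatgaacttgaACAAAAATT
VH1-26: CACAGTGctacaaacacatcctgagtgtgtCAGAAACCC
VH1-31: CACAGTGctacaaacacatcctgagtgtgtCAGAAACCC
VH3-6: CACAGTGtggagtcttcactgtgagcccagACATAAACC
On the minus strand of mm9, the signal of VH5-2 lies at chr12:114816676-114816714, that of VH2-2 at chr12:114826439-114826477, that of VH1-26 at chr12:116026544-116026582 and that of VH3-6 at chr12:115526324-115526362. That of VH5-4 lies at chr12:114835618-114835656, that of VH5-9-1 at chr12:114974283-114974321, that of VH2-4 at chr12:114891463-114891501 and that of VH1-31 at chr12:116067436-116067474.

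VH2-2 and VH2-4 have the same 39 bases, and yet VH2-2 made up 3.46% ± 0.604 (SD, n = 18) of VDJH joints and VH2-4 0.234% ± 0.0443. Within single libraries, the ratio of VH2-2 to VH2-4 ranged from 11.3 (D6) to 21.0 (E1), with a median of 14.4. VH1-26 and VH1-31 likewise share all 39 bases, at 2.53% ± 0.383 and 0.180% ± 0.0342, and their ratio ranged from 10.6 (E2) to 18.6 (A3). VH5-4, VH5-12, VH5-6 and VH5-9-1 have a signal in common, and their mean shares were 2.07%, 1.18%, 1.11% and 0.420%. In all 18 libraries, the first gene of each of the VH2 and VH1 pairs was used over 10 times as often as its partner with the same signal. These are the 3 groups that hold a gene of the first 10. Among the genes whose signal starts with CAC at the first base after the gene, 16 groups shared their 39 bases, and in 9 of them the most used gene was under 2 times as frequent as the least used, as for VH10-1 at 1.59% and VH10-3 at 1.17%. Over these 16 groups this ratio ranged from 1.10 to 14.8.

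The heptamer CACAGTG, read on the coding strand at the first base after the gene, was present in 71 of 91 VH genes (78.0%) whose signal could be read there. Of the 26 such genes with a mean share of at least 1%, 20 had it (76.9%), and of the 65 genes below 1%, 51 had it (78.5%). The most used gene, VH5-2, does not carry it: its heptamer is CACAATG, which is found in 9 genes, of which 5 are of the VH5 family. VH3-3, VH2-3, VH11-1 and VH11-2 are the others. The nonamer ACAAAAACC was present in 2 of 91 genes (2.20%), and none of the 6 genes among the 10 most used that could be read had it. In a further 21 annotated genes the bases after the annotated end did not start with CAC, and these were left out of the counts. VH1-18 and VH12-3 are among them. A pair of the 10 most used genes, VH1-11 and VH13-2, was not read.

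VH5-2, also known as VH81X and next to the DH end of the cluster, was the most used VH gene in 17 of 18 libraries. Its share was 7.33%, 6.16% and 6.53% in set A, 8.53%, 8.88% and 7.37% in set B and 6.63%, 7.64% and 6.96% in set C. It was 6.81%, 5.85% and 5.66% in set E, and in set D it ranged from 2.01% (D3) over a median of 5.54% to 6.35%. The mean was 6.36% ± 1.54 (n = 18), and 43.99% of all VH5 joints came from this gene. VH2-2, next to it in the order along the cluster, was second in 15 libraries and reached a mean of 3.46%. No other gene reached a mean of 3%.

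Behind these proximal genes followed VH1-26 at 2.53% ± 0.383, VH3-6 at 2.14% ± 0.306, VH1-11 at 2.14% ± 0.408, VH1-18 at 2.10% ± 0.125 and VH5-4 at 2.07% ± 0.344. The differences between the means of VH3-6, VH1-11, VH1-18 and VH5-4 were smaller than their SDs over libraries. Within libraries their order was not the same throughout. VH1-11, for example, lay above VH3-6 in all of set A and below it in D2 to D6. VH12-3, known from B-1 cell antibodies against phosphatidylcholine, was at 1.96% ± 0.386. VH13-2 at 1.64% ± 0.161 and VH1-72 at 1.64% ± 0.247 closed the first 10. Outside D3, VH5-2 always ranked first, VH2-2 never fell below rank 3 and VH1-11 never below rank 8, whereas VH1-72 ranged down to rank 17. Single libraries had 8 or 9 of these 10 genes among their own first 10, other than D3, which had 5. In the plot of the 20 most used genes, the points of the sets overlap at most genes, set A stands above the other libraries at VH1-11, VH12-3 and VH8-2, and the star of D3 lies outside the other points at most genes but not at VH1-18.

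**Figure D1:**
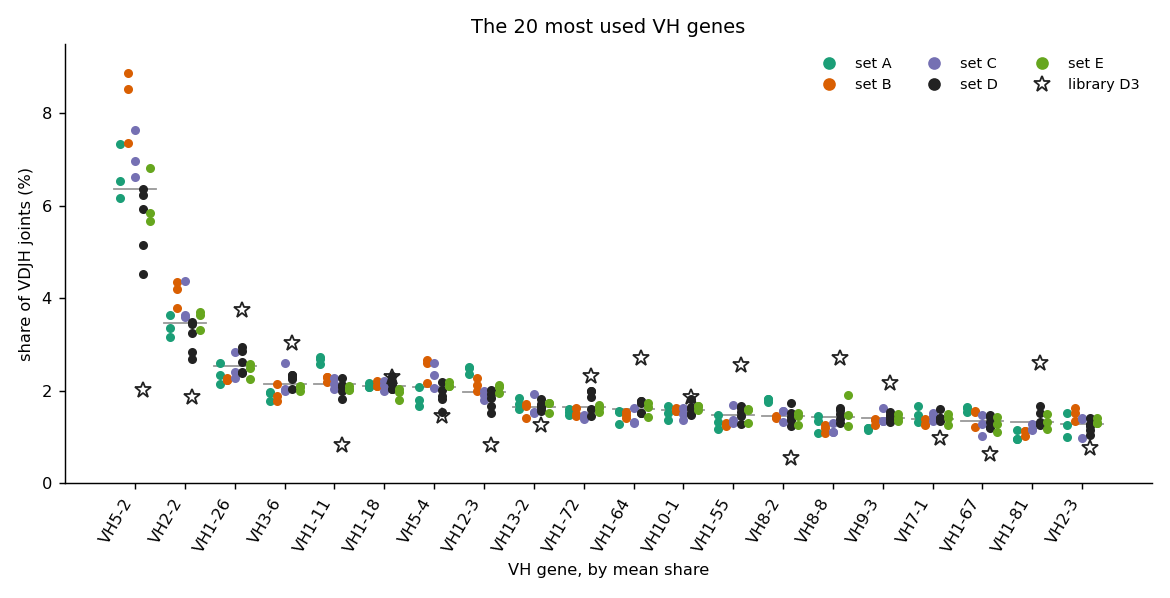
Share of VDJH joints (%) of the 20 VH genes with the highest mean share, 1 point per library and mouse, coloured by set, with the mean of 18 libraries as a grey line and D3 as a star. VH5-2 lies highest in every library other than D3, where it is at 2.01%.

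The 10 most used genes of a library made up 26.6% ± 1.52 of its VDJH joints, and 27.9 ± 1.16 genes were enough for 50% and 82.6 ± 1.79 genes for 90% of them. D3 lay at the low end of these counts, with 25 genes for 50% and 76 for 90%, next to 82 to 84 genes for 90% in the other libraries. Between 168 and 182 VH genes had a value above 0. Of 253 names, 36 reached a mean share of 1%, 107 stayed below 0.02% and 49 were listed at 0 throughout. The 146 genes that were listed in each library and reached 0.02% held 99.7% of VDJH joints.

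Usage followed the RefSeq class of a gene. Of 120 names that RefSeq gives as V segments, 33 reached 1% and 100 reached 0.1%, and their median was 0.568%. Of 63 names that RefSeq gives as V pseudogenes, 39 were at 0 in all libraries and 11 reached 0.1%. Only VH7-1 (1.38% ± 0.153) and VH4-2 (1.18% ± 0.161) reached 1%. This class is the RefSeq label alone, and whether these genes can code for a heavy chain was not tested. Another 70 names did not match RefSeq and held 3.66% ± 0.311 of VDJH joints together, led by VH1-87 at 1.01%. Pseudogenes held 6.52% ± 0.822 of VDJH joints, with a range of 5.92% to 7.57% without D3 and 3.83% in D3.

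Along the cluster, the 183 genes with a RefSeq position were divided by order into sixths. The sixth next to the DH segments, from VH5-1 to VH2-9, held 22.4% ± 3.08 of VDJH joints, and the next 2 held 17.1% ± 0.581 and 18.9% ± 0.539. The sixths from VH1-16 to VH1-42 and from VH1-43 to VH1-63 were lower, at 10.5% ± 0.923 and 12.1% ± 0.950, and the farthest, from VH1-64 to VH1-86, was at 15.3% ± 1.73. Without D3, the sixths varied by an SD of at most 2.08, and the proximal one remained the highest on average at 23.0%. In D3 the farthest sixth was the highest at 21.0%, and the proximal one was at 13.1%. The sixths held 19, 20, 20, 15, 21 and 25 RefSeq V segments in this order, and usage per segment was not compared.

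**Figure D2:**
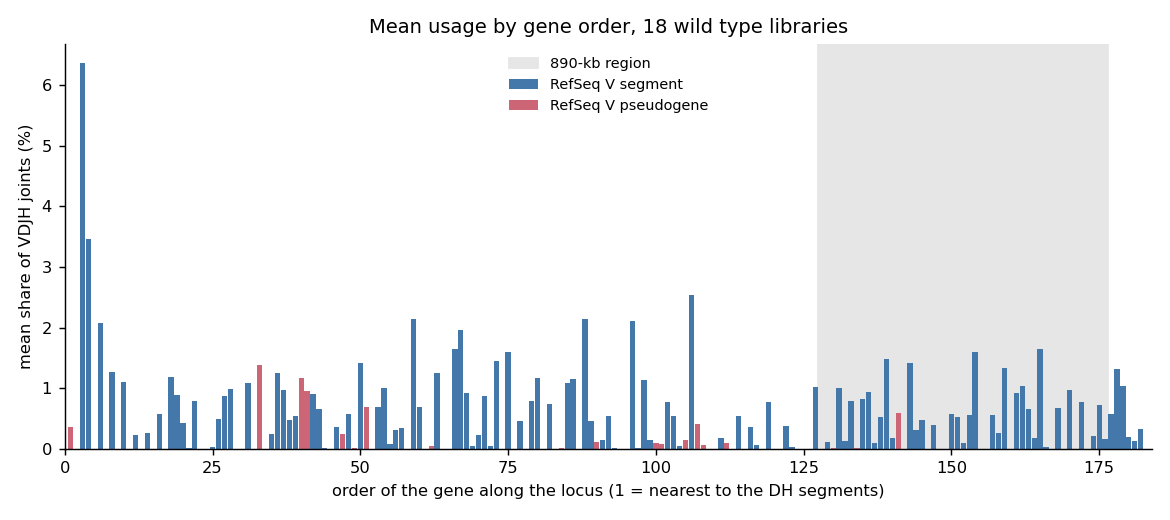
Mean share of VDJH joints (%, 18 libraries) of each VH gene by its order along the cluster, from the DH end at 1, with RefSeq V segments in blue, V pseudogenes in red and the 890-kb region in grey. The peak of VH5-2 at 6.36% and that of VH2-2 at 3.46% stand at the DH end.

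By family, VH1 was the most used in all libraries, VH5 the second in all, and VH2 and VH3 held the third and the fourth place. VH1 held 42.02% ± 3.17, VH5 14.5% ± 2.003, VH2 9.86% ± 1.29, VH3 6.98% ± 0.448 and VH8 5.53% ± 0.329 of VDJH joints. VH8 took rank 5 in each library. The next 10 families had means between 3.19% (VH9) and 1.09% (VH15), and VH16 lay at 0.00701%. From VH4 at 2.42% to VH6 at 2.12% neighbours in the order differed by less than their spread, and VH12, for example, took ranks from 7 to 13.

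How much a family rests on 1 gene differed widely. VH13-2 and VH15-2 made up all the usage of their families to 3 digits, VH12-3 88.2% of VH12 and VH11-2 65.8% of VH11, whereas VH1-26 gave only 6.03% of VH1. VH1-26 led its large family in 13 libraries, as VH8-2 led VH8 in 13. VH5-2, VH2-2, VH3-6, VH12-3, VH13-2, VH9-3 (1.41% ± 0.223), VH7-1, VH15-2 (1.09% ± 0.103) and VH11-2 (0.912% ± 0.184) led theirs in all 18. VH10-1 (1.59% ± 0.131) led in 17, VH4-1 (1.25% ± 0.116) in 12, VH14-4 (0.696% ± 0.137) in 11 and VH6-3 (0.921% ± 0.278) in 8.

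**Figure D3:**
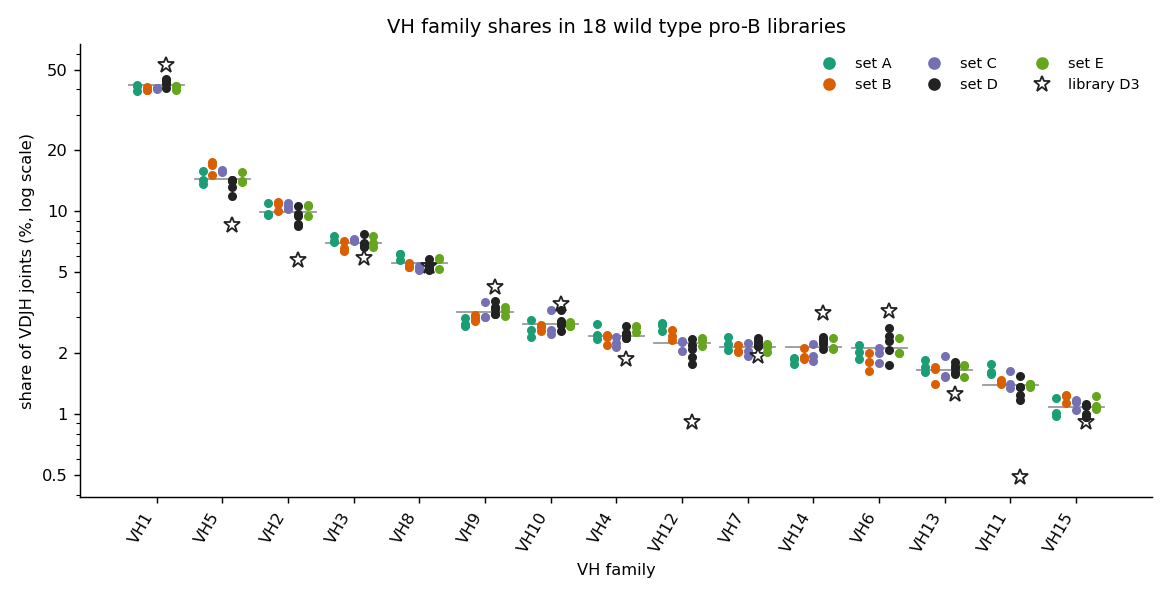
Share of VDJH joints (%, log scale) of the 15 VH families with a mean share of at least 1%, 1 point per library, coloured by set, with the mean as a grey line and D3 as a star. D3 is highest for VH1 (53.0%) and lowest for VH5 (8.52%), VH2 (5.76%), VH12 (0.916%) and VH11 (0.491%).

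Across libraries the ranking was close. Spearman's rho of the shares of 146 genes had a median of 0.981 over 27 pairs of libraries of 1 set and of 0.979 over 126 pairs of different sets. Without D3 the lowest value of any pair was 0.960, whereas D3 reached 0.827 to 0.930 with the others. These coefficients are across genes, which are not independent replicates, and are given as a description. The coefficient of variation within sets had a median of 11.6% for the 36 genes with a mean share of at least 1%, of 16.0% for the 84 genes between 0.1% and 1% and of 35.3% for the 26 genes below 0.1%. That of the 5 set means was 10.6%, 11.6% and 20.8% for the same genes, below the value within sets in each class, although a mean of 3 or more libraries also varies less than a single library.

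To ask what shifts between sets, the log2(share + 0.02) of the 146 genes was fitted with limma over the 5 sets. No gene differed between the sets after Benjamini-Hochberg adjustment (0 of 146, 0% of the genes tested, smallest adjusted p = 0.288, limma F test), although 24 genes had an unadjusted p under 0.05. VH1-81, VH5-4, VH1-9, VH5-17 and VH1-36 came first in this order. Without D3, 7 of 146 genes (4.79%) passed, which were VH5-2, VH2-2, VH5-4, VH1-11, VH12-3, VH1-81 and VH1-9. Without D3 and E1, 10 genes passed, among them the same 7.

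Set A had the highest usage of VH1-11, VH12-3 and VH8-2 and the lowest usage of VH1-9. VH1-11 was at 2.68%, 2.58% and 2.72% in set A and at no more than 2.29% elsewhere. VH12-3 was at 2.50%, 2.50% and 2.36% in set A and at no more than 2.26% in any other library. VH8-2 was at 1.75%, 1.82% and 1.82% in set A and reached at most 1.73% elsewhere (D1). VH1-9 was at 0.980%, 0.847% and 0.889% and was 1.04% or more in the other libraries. These 4 genes therefore did not overlap with the other sets, with or without D3, as 5 of 146 genes (3.42%) in set A. With all 18 libraries none of 146 genes passed for set A (0%, limma, adjusted p = 0.532 for these 4 genes, 12 genes with an unadjusted p under 0.05). Without D3, 4 of 146 genes (2.74%) passed, of which 3 were higher (2.05%) and 1 lower (0.685%), with log2 differences from the other sets of 0.32 ± 0.071 (SE) for VH1-11 (adjusted p = 0.0122, limma), 0.32 ± 0.078 for VH12-3 (adjusted p = 0.0180, limma), 0.32 ± 0.085 for VH8-2 (adjusted p = 0.0273, limma) and -0.32 ± 0.084 for VH1-9 (adjusted p = 0.0265, limma).

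Set B had the highest usage of VH5-2, at 8.26% ± 0.790, and the lowest of VH5-17, another proximal gene, at 0.779% ± 0.104. VH5-17 was at 0.897%, 0.704% and 0.734% in set B, and C2, at 0.822%, lay between these values. For VH5-2, C2 at 7.64% lay within the range of set B and A1 at 7.33% just below it. None of 146 genes passed for set B (0%, limma, smallest adjusted p = 0.175), while 10 genes had an unadjusted p under 0.05. Without D3, these 2 genes passed (1.37%), 1 higher (0.685%) and 1 lower (0.685%). The log2 difference was 0.38 ± 0.088 for VH5-2 and -0.39 ± 0.093 for VH5-17 (both with an adjusted p = 0.0140, limma).

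Sets C and E had no gene past the threshold (0% each), with 7 and 2 genes with an unadjusted p under 0.05 in limma, and also none without D3, with 13 and 7 such genes.

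Set D differed from the mean of the other sets in 18 of 146 genes (12.3%, limma, adjusted p = 0.0417 for all of them), of which 9 were higher (6.16%) and 9 lower (6.16%). All 9 higher genes were of the distal VH1 family, of which 73 were tested. They were VH1-72, VH1-81, VH1-9, VH1-82, VH1-76, VH1-22, VH1-34, VH1-85 and VH1-66. The 9 lower genes were the proximal VH5-2, VH2-2, VH5-6 and VH2-5, as well as VH12-3, VH3-3, VH1-23, VH8-4 and VH8-6. VH5-2 fell by 0.56 ± 0.18 and VH2-2 fell by 0.37 ± 0.11 on the log2 scale, while VH1-81 rose by 0.42 ± 0.12. In none of these 18 genes were the 6 libraries of set D separate from the other libraries, as in none of all 146 genes (0%). For VH5-2, for example, D1 and D2 were at 6.35% and 6.23%, D4 at 5.92%, D6 at 5.16%, D5 at 4.52% and D3 at 2.01%. VH1-81 was at 1.26%, 1.29%, 1.32%, 1.51%, 1.66% and 2.60% in the same order of libraries.

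The number of genes called in set D rests on single libraries and on the settings of the fit. No gene passed for set D in limma without the trend (smallest adjusted p = 0.0679), without the filter on low shares (smallest adjusted p = 0.105) or with E1 placed in set C (smallest adjusted p = 0.0582). Without D3, 5 of these 18 genes still passed (3.42% of 146), VH5-2 (fell by 0.32 ± 0.074), VH2-2, VH12-3, VH1-81 and VH3-3, 1 higher (0.685%) and 4 lower (2.74%), and all 18 kept their direction. Without D3 and E1, none of 146 genes passed for set D (39 with an unadjusted p under 0.05 in limma), while 5 passed for set A and 2 for set B. When any library other than D1, D2, D3 or E3 was left out no gene passed for set D, whereas 58 passed without D1, 32 without D2 and 21 without E3. On the scale of all joints, where the high VDJH percentage of set D enters, 61 of 134 genes tested were higher in set D and 0 lower, with a median shift of all genes of 0.32, and on centred log2 ratios 3 were higher and 9 lower. On the scale of all joints, none of the 9 lower genes passed, and VH5-6 was the only one of the 18 genes to change sign.

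Described by gene lists, the median log2 difference of set D from the other sets was 0.17 for 73 VH1 genes, -0.23 for 14 VH2 genes, -0.05 for 14 VH5 genes, -0.28 for 10 VH8 genes and -0.21 for 15 pseudogenes, next to 0.05 for all 146 genes. Without D3 these medians were 0.11, -0.12, -0.04, -0.12 and -0.03. Of the VH1 genes 9 rose and 1 fell, of VH2 0 rose and 2 fell, of VH5 0 rose and 2 fell, of VH8 0 rose and 2 fell, and no pseudogene passed, next to 6.16% of all 146 genes in each direction. Without D3, 1 VH1 gene rose, 1 VH2 and 1 VH5 gene fell and no VH8 gene passed, next to 0.685% of all genes higher and 2.74% lower. With all 18 libraries, no gene of these lists passed in sets A, B, C and E, and the VH8 genes of set A had a median of 0.20. Without D3, 1 VH1 gene rose and 1 fell and 1 VH8 gene rose in set A, and 1 VH5 gene rose and 1 fell in set B.

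The 16 families were tested by permutation of the libraries over the sets. No family passed (0% of 16, smallest adjusted p = 0.129, permutation F test), while 4 families had an unadjusted p under 0.05. VH8, at 6.02% ± 0.235 in set A and 5.23% ± 0.119 to 5.63% ± 0.359 in the other sets, VH12, at 2.71% ± 0.125 in set A and 1.87% ± 0.511 in set D, VH5, at 16.5% ± 1.21 in set B and 12.7% ± 2.24 in set D, and VH14, at 1.85% ± 0.0684 in set A and 2.41% ± 0.376 in set D, were these 4. Without D3, VH12 passed (6.25% of 16, adjusted p = 0.0237, permutation F test). VH12 was then at 2.06% ± 0.230 in set D and 2.71% in set A, which follows VH12-3.

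Each set was also compared with the other libraries by exact permutation tests, with p-values adjusted over the 80 tests of 16 families in 5 sets. In set D, 4 families differed, each with an adjusted p = 0.0420 (exact permutation test). VH1 was higher by 4.11 percentage points, VH5 lower at 12.7% against 15.3%, VH12 lower at 1.87% against 2.41%, and VH14 higher at 2.41% against 1.998%. The 14 VH5 genes tested had a median log2 difference of only -0.05 in set D. The lower VH5 share thus rests on few genes, VH5-2 among them. Without D3 none of the 80 tests passed (smallest adjusted p = 0.118, exact permutation test), with VH1 at 43.1% in set D against 40.6% in the other libraries.

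The percentage of VDJH joints, the denominator of each share, was 44.2%, 45.5% and 43.3% in set A, 40.6%, 37.5% and 52.8% in set B, 33.8%, 42.6% and 43.8% in set C and 42.8%, 41.1% and 43.03% in set E. In set D it ranged from 46.5% over a median of 49.5% to 78.8% in D3. Over the 5 sets together the difference did not pass (permutation F test, p = 0.117), whereas it did on the ranks of the percentages (permutation F test, p = 0.0128). Set D alone, at 54.7% ± 12.5, was higher than the other 12 libraries at 42.6% (exact permutation test, p = 0.00189, adjusted over 5 sets 0.00943). Without D3, set D was at 49.8% ± 4.49 (exact permutation test, p = 0.00743, adjusted 0.0372). All 6 libraries of set D lay above all libraries of sets A, C and E, but B3, at 52.8%, lay within their range.

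In D3, 103 of 146 genes (70.5%) lay outside the range of the other 17 libraries, 50 above and 53 below, whereas the same count was 5 to 24 genes (3.42% to 16.4%) for each of the others. It was 13.0%, 8.22% and 9.59% in set A, 8.22%, 16.4% and 4.11% in set B, 15.8%, 9.59% and 6.85% in set C, 6.16%, 4.11% and 3.42% in set E and 6.85%, 3.42%, 4.11%, 5.48% and 3.42% in D1, D2, D4, D5 and D6. Of the VH1 genes, 37 of 73 were above and 16 below. Of 14 VH2 genes 0 were above and 12 below, and of 14 VH5 genes 0 were above and 5 below. Both VH11 genes and both VH12 genes tested were below. Of the 15 pseudogenes 1 was above and 11 below, next to 45 above and 35 below of 110 V segments. VH1 genes and V segments thus lay on either side of the range.

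VH1-26 took the first place in D3 at 3.75%, next to 2.14% to 2.94% in the others, and VH3-6 the second at 3.04%. VH5-2 ranked 10 at 2.01% and VH2-2 ranked 14 at 1.86%. VH1-11 was at 0.814% and rank 49, VH12-3 at 0.819% and rank 48, while VH8-2 was at 0.550% next to 1.23% or more elsewhere. VH11-2, known like VH12-3 from B-1 cells, was at 0.293% next to 0.765% or more. VH8-8 was at 2.71% next to at most 1.91%, VH1-81 at 2.60% next to at most 1.66%, and VH1-64 at 2.71% next to at most 1.78%. VH6-3, named like VH1-64 and VH8-11 after its values were seen, had the largest relative increase among genes with a mean share of at least 0.5%, at 1.85% or 2.23 times the median of the others, and VH8-11 the largest decrease, at 0.157% or 0.264 times.

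**Figure D4:**
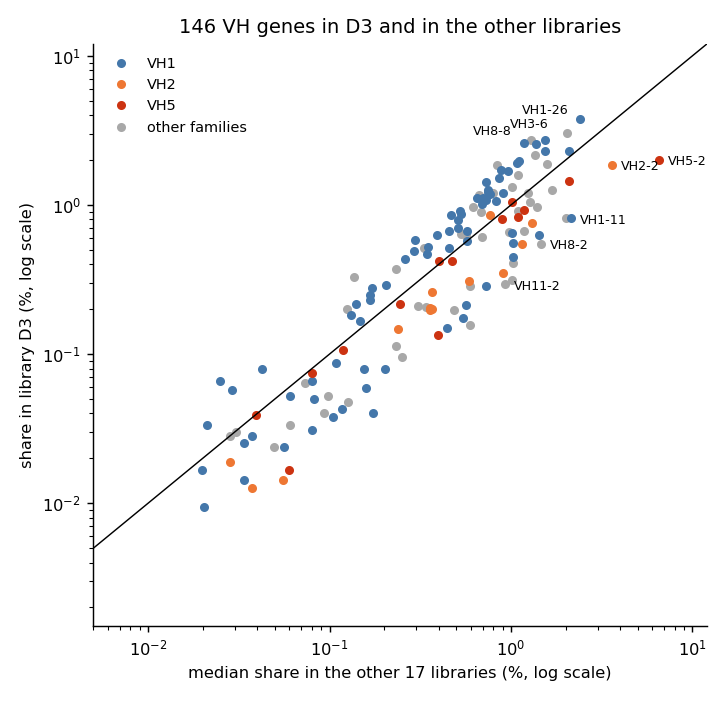
Share in D3 (%, log scale) against the median share in the other 17 libraries (%, log scale) for 146 VH genes, coloured by family, with the line of equal shares. VH5-2 and VH2-2 lie below the line, VH1 genes on both sides of it, and VH1-26 has the highest share in D3 at 3.75%.

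D5 and D6 lay next to D3 for VH5-2 and for the VH1 family, but not for all of the 10 most used genes. VH5-2 was at 4.52% and 5.16% in them, the lowest values after D3, and the VH1 family at 44.9% and 44.4% had the highest values after D3. For VH3-6, in contrast, C1 at 2.60% was above D5 at 2.34% and D6 at 2.29%, and for VH1-18 D5 at 2.32% was above D3 at 2.30%. Their VDJH percentages, 56.8% and 52.0%, were among the highest 4. For pseudogenes, D6 at 5.92% was the lowest after D3, but D5 at 6.11% was close to E3 at 6.10% and C1 at 6.18%.

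The relation of the VDJH percentage to the share of VH5-2, of the VH1 family and of pseudogenes was computed over the libraries, 3 relations chosen after the values were seen, with p-values adjusted over them. For VH5-2, Pearson's r was -0.810 (permutation p = 0.00036, adjusted 0.00054) and Spearman's rho -0.564 (permutation p = 0.0157, adjusted 0.0235) over 18 libraries. Without D3 and D5, the 2 libraries farthest from the median percentage, r was -0.405 (permutation p = 0.122), and without D3 alone r was -0.565 (permutation p = 0.0182, adjusted 0.0273) and rho -0.483 (permutation p = 0.0515, adjusted 0.0772). Within set D, r was -0.989 (n = 6, exact permutation p = 0.00833) and rho -0.771 (n = 6, exact permutation p = 0.103), and within the other sets together r was -0.138 (n = 12, permutation p = 0.672).

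For the VH1 family, r was 0.907 (permutation p = 8e-05, adjusted 0.00024) and rho 0.643 (permutation p = 0.00491, adjusted 0.0147) over 18 libraries, and r was 0.533 without D3 and D5 (permutation p = 0.0341, adjusted 0.102) and 0.676 without D3 alone (permutation p = 0.00309, adjusted 0.00927), where rho was 0.576 (permutation p = 0.0174, adjusted 0.0523). Within set D, which includes D3, r was 0.970 (n = 6, exact permutation p = 0.00833) and rho 0.771 (n = 6, exact permutation p = 0.103), and within the other sets 0.265 (n = 12, permutation p = 0.419). For pseudogenes, r was -0.706 (permutation p = 0.0215) and rho -0.156 (permutation p = 0.537) over 18 libraries, but r was 0.109 (permutation p = 0.689) without D3 and D5 and -0.0823 (permutation p = 0.754) without D3 alone. Within set D, r for pseudogenes was -0.928 (n = 6, exact permutation p = 0.0194) and rho -0.771 (n = 6, exact permutation p = 0.103). In sets A, B, C and E the sign was the other one, with r at 0.523 (n = 12, permutation p = 0.0774, adjusted 0.232) and rho at 0.650 (n = 12, permutation p = 0.0266, adjusted 0.0799). After adjustment over the 3 relations, neither r nor rho passed in these 12 libraries for any of them. Each share has the VDJH percentage as its denominator, and whether cell composition or depth bears on these relations was not tested.

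**Figure D5:**
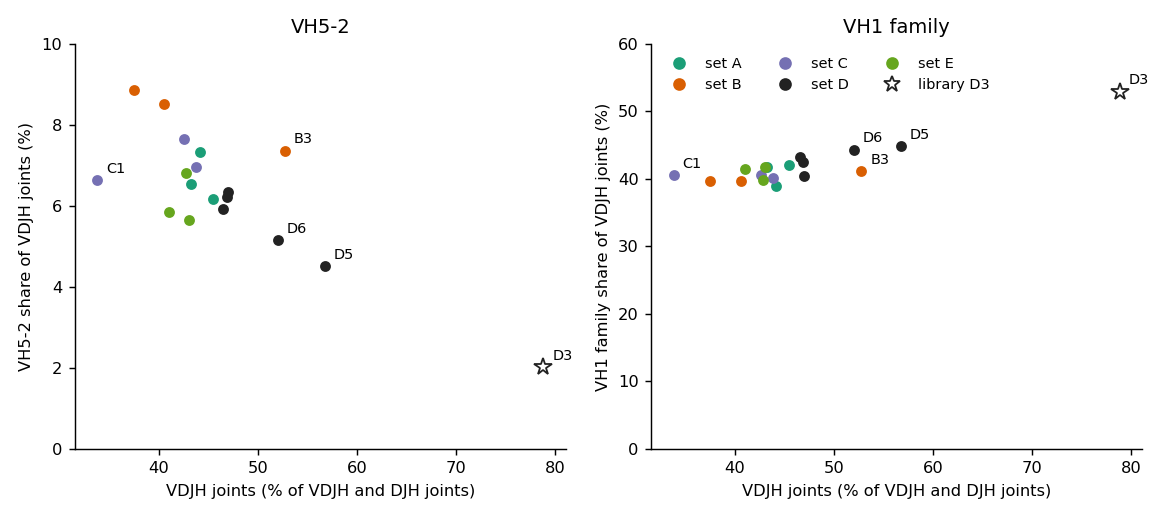
Share of VDJH joints (%) of VH5-2 (left) and of the VH1 family (right) against the percentage of VDJH joints among VDJH and DJH joints (%), 1 point per library, coloured by set, with D3 as a star. D3 lies at 78.8% VDJH joints with VH5-2 at 2.01% and VH1 at 53.0%, and within sets A, B, C and E r is -0.138 for VH5-2 and 0.265 for VH1.

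The Igh mutations of the other VDJ-seq libraries of the series lie in the distal part of the cluster, for which the wild-type usage is the reference. The 49 genes of the 890-kb region between VH1-47 and VH1-80 held 22.8% ± 2.01 of VDJH joints, with 20.9% to 24.2% without D3 and 29.4% in D3. VH8-8 was the most used VH8 gene of this region at 1.42% ± 0.387, and VH8-7, which lies next to the PAIR4 element and is a pseudogene in RefSeq, was at 0.584% ± 0.108. In D3 these 2 genes went apart, with VH8-8 at 2.71%, the highest value, and VH8-7 at 0.287%, the lowest value of the 18 libraries.

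The 6 distal genes beyond the region, VH1-80 to VH1-85, together held 3.56% ± 0.741 of VDJH joints. They were at 3.03% ± 0.171 in set A, 3.20% ± 0.0214 in set B and 3.13% ± 0.0401 in set C, at 3.60% ± 0.447 in set E and at 4.20% ± 0.963 in set D, where D3 reached 6.005%. VH1-81 (1.31% ± 0.373) and VH1-82 (1.04% ± 0.217) led, followed by VH1-80 (0.567% ± 0.107), VH1-85 (0.320% ± 0.0892), VH1-83 (0.190% ± 0.0538) and VH1-84 (0.136% ± 0.0401). VH1-86, at the end of the cluster, was listed at 0 in all libraries. In set D 3 of these 6 genes, VH1-81, VH1-82 and VH1-85, rose and none fell, next to 6.16% of all genes, and without D3 VH1-81 rose.

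The 6 downstream genes on the DH side of the region held 2.60% ± 0.258, from 2.19% to 2.99%. VH1-47 was at 1.01% ± 0.156 and VH1-39 at 0.773% ± 0.154, followed by VH1-42 (0.376% ± 0.0645), VH1-36 (0.360% ± 0.0812), VH1-37 (0.0556% ± 0.0205) and VH1-43 (0.0226% ± 0.0115). Set B was the lowest at 2.33% ± 0.236. Set D, at 2.75% ± 0.211 with D3 at 2.99%, and set A, at 2.73% ± 0.191, were close to each other at the top. None of these genes passed the test in any set. VH1-39 was highest in D3 at 1.27% and VH1-47 lowest in D3 at 0.6502%, although they are members of the same family.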

How the data were processed

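VDJ-seq libraries were made by the authors from 2 μg of sheared genomic DNA with unique molecular identifiers, JH primer extension and paired-end sequencing, and were analysed as described by Chovanec et al. The authors deposited 1 value per VH gene, a percentage of all unique VDJH and DJH joints. The submitters' processing notes name R 3.3.3 and the builds mm9 and mm10, and the aligner for VDJ-seq was not given in the sources used here. The files used give no numbers of joints, and depth and counting errors were not estimated from the steps of the values. Reads of near-identical VH genes can be assigned to either copy, and how these were treated was not tested.

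Shares, family sums (family by gene name), ranks and permutation tests (100000 draws, or all splits where called exact, two-sided) were computed with Python 3.11.15 and numpy 2.4.6. Limma 3.58.1 in R 4.3.3 (lmFit, eBayes with trend) was fitted to log2(share + 0.02) of the genes listed in all 18 libraries with a mean share of at least 0.02%. The pseudocount understates changes of little used genes. Benjamini-Hochberg adjustment ran over all genes tested, with a threshold of 0.05. On data simulated for the comparison between the 5 sets (146 genes, 20 of them changed by 0.75 on the log2 scale, 20 rounds), the limma F test found 60.8% of the changed genes, and 4.33% of its calls were false.

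Of 253 VH gene names, 233 are listed in each library and 183 matched RefSeq symbols (GRCm38.p6), which gave class and order only. The names listed in only some libraries sum to at most 0.0152% of VDJH joints. Recombination signals were read from mm9 by the annotation of 112 VH genes.

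Members and gene lists were chosen with earlier results of these data known. Genes named by rule are the 10 most used, the most used of each family, the 5 with the smallest p between sets, up to 3 called genes of a set that did not overlap with the other libraries, and the distal and downstream genes that the study uses. The other genes called in a set and those of the D3 comparison were named after their values were seen. The relations to the VDJH percentage, the exact tests of each family and the fits without D3 and E1 were added after seeing the data. 3 pairs of VDJ-seq libraries of the series hold identical values, and 1 of them includes a member (E1). The mRNA files of the series were not used.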

Additional observations from a re-analysis of the deposited data

Results flagged for a closer look

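Of 34 reported values, 9 had 1 library of set D far from the other 5, and it was D3 in all 9 (above Dixon's 95% critical value for 6 samples, which chance passes in about 5% of groups). The gap over the range was 0.643 or more in these 9 values. D3 was the highest for the VDJH percentage (78.8%), the VH1 family (53.0%), VH1 and VH8 together (58.4%), the VH14 family (3.14%), VH3-6 (3.04%) and the 890-kb region (29.4%). It was the lowest for the VH11 family (0.491%), VH1-11 (0.814%) and the number of genes that hold 90% of VDJH joints (76). These values are not independent, since they come from the same library and its shares sum to 100%. VH5-2, at 2.01%, did not pass this test because D5 and D6 lay between D3 and the others. Sets of 3 libraries were not tested.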

How the results depend on the processing

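The count of genes that differ between the 5 sets was 0 under all 10 other planned settings and remained 0 when any 1 library was left out, other than D3, so that it ranged from 0 to 7. It was 10 without D3 and E1. The count over the contrasts of single sets, 18 in the fit reported, ranged from 0 to 58 when 1 library was left out (58 without D1, 32 without D2, 11 without D3, 21 without E3, and 0 without any other). It was 0 without a filter on low shares, 0 without the trend, 0 with experiment 129715 in the set of 75644 to 75646, 61 of 134 genes as a percentage of all joints and 7 without D3 and E1. Of 522 values of the 18 genes over these settings, 165 kept direction and call, 356 kept the direction only and 1 reversed. VH5-6 alone changed sign, to 0.087 as a percentage of all joints (adjusted p = 0.570, limma, over a range from 0.0188 to 0.570 for this gene). The count of families ranged from 0 to 1 when 1 library was left out (VH12 without D3), was 1 (VH8) with experiment 129715 moved and 4 (VH5, VH8, VH12 and VH14) without D3 and E1, and was 0 under the other 4 settings. For the VDJH percentage between the sets, F was 2.05, ranged from 1.58 to 2.47 when 1 library was left out, and was 5.03 on ranks (permutation p = 0.0128), the only setting under which it passed. The causes of these changes were not tested beyond the libraries left out. No paired analysis was possible because the labels give no replicate numbers that pair libraries across sets.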
